A study of Bos taurus with 6 samples.

Results

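The genes described here code for the enzymes that place methyl groups on histones and the enzymes that remove them. They were chosen by symbol alone, as the entries of the gene table named KMT, KDM, NSD, SETD, SMYD, PRMT, EHMT or SUV39H with a number or letter, together with SETMAR, DOT1L, EZH1, EZH2 and ASH1L. The rule found 60 of the 47249 genes, of which 44 are methyltransferase family members and 16 are demethylases. The samples were labelled as testes of Wandong cattle (Bos taurus), a native breed of Anhui, from 3 calves aged 3 months (immature) and 3 bulls aged 3 years (mature), with no treatment and 1 library per animal. Total RNA of a testis slice was depleted of ribosomal RNA, so each value mixes all cell types of the organ. The unit is FPKM, the fragments of a gene divided by its length and by the mapped fragments of the library, which is per length, so that levels of different genes can be set side by side.

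The library labelled calf 3 stood apart before any comparison was made. All 12 marker genes fixed for oligodendrocytes, astrocytes and neurons were highest in it, with summed oligodendrocyte levels of 12343 FPKM against 3.35 and 4.17 FPKM in calf 1 and calf 2. The summed level of 6 Leydig cell markers was 0.502 FPKM in calf 3 against 1406 and 1141 FPKM in the other calves, and WT1, GATA4, FSHR, CYP11A1, CYP17A1 and DAZL were listed at 0. The other Sertoli and germ cell markers went both ways there. AMH had 0.340 FPKM against 736 and 483 FPKM in the other calves, and DDX4 had 0.0152 FPKM against 14.0 and 20.2 FPKM. All 7 spermatocyte markers were below both other calves. Of 9 Sertoli cell markers, 7 were below both other calves and 2 above, with CLDN11 at 429 FPKM against 0.940 and 18.2 FPKM. Of 8 spermatogonial markers, 4 were below both other calves and 4 above (GFRA1, ZBTB16, UCHL1 and ID4). The markers of this library go against its label, and whether it is testis cannot be told from the sources used here, so every calf value over all 3 libraries includes a library of uncertain tissue. Counts over all members are therefore given with all libraries, as labelled, and without calf 3, and so are most of the genes described with their values. In the bulls, all 13 markers of spermatocytes and spermatids lay above every calf, and the summed spermatid markers ranged from 13117 to 14825 FPKM against 0.810 to 2.60 FPKM in the calves. Of the 9 Sertoli cell markers, 7 were lower in every bull than in calf 1 and calf 2, and CLDN11 and INHBB were higher. Their sums were 194 to 231 FPKM in the bulls against 1797 and 1493 FPKM in calf 1 and calf 2, where AMH and INHA made up most of the sum. In such bulk RNA, fewer cells of a type and less RNA per cell cannot be told apart, and the part of cell makeup in the values below was not tested.

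Histone methyltransferases transfer a methyl group from S-adenosylmethionine to a lysine or arginine of a histone, and demethylases take it off again, either with a flavin cofactor (the KDM1 enzymes) or with iron and oxoglutarate (the JmjC enzymes). Methylation of H3K4 marks promoters and enhancers in use, that of H3K36 and H3K79 marks transcribed gene bodies, and that of H3K9, H3K27 and H4K20 marks silent or compacted chromatin. Male germ cells depend on several of these marks: spermatogonia reshape H3K4 and H3K27 methylation, meiotic cells silence the X and Y chromosomes with H3K9 methylation, and spermatids lose most histones to protamines.

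Most of the enzymes were present at moderate levels at both ages. The median over the 60 genes was 8.81 FPKM in the bulls (range 0.156 to 131, from means of 3 bulls), 10.4 FPKM in the mean of calf 1 and calf 2 and 9.76 FPKM in calf 3. The order of the genes changed with age. In calf 1 and calf 2 the highest mean was that of PRMT1, the main enzyme of asymmetric arginine dimethylation (66.3 FPKM), followed by KDM1A (29.9 FPKM) and KDM5B (27 FPKM). In the bulls KDM5B stood at the top with 131 ± 11.0 FPKM (SD, n = 3), ahead of SETD3 at 90.1 ± 24.3 FPKM and NSD2 at 76.8 ± 5.24 FPKM, and the spreads of the last pair overlap. NSD2 had been the 30th and DOT1L the 52nd of the 60 genes in calf 1 and calf 2, and in the bulls they were the 3rd and the 9th. NSD1 went from the 4th place to the 35th. The lowest gene was SMYD1, a methyltransferase of heart and skeletal muscle, with 0.131, 0.191 and 0 FPKM in the calves and 0.404, 0.0525 and 0.0126 FPKM in the bulls, the only member that missed the filter on low values.

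**Figure D1:**
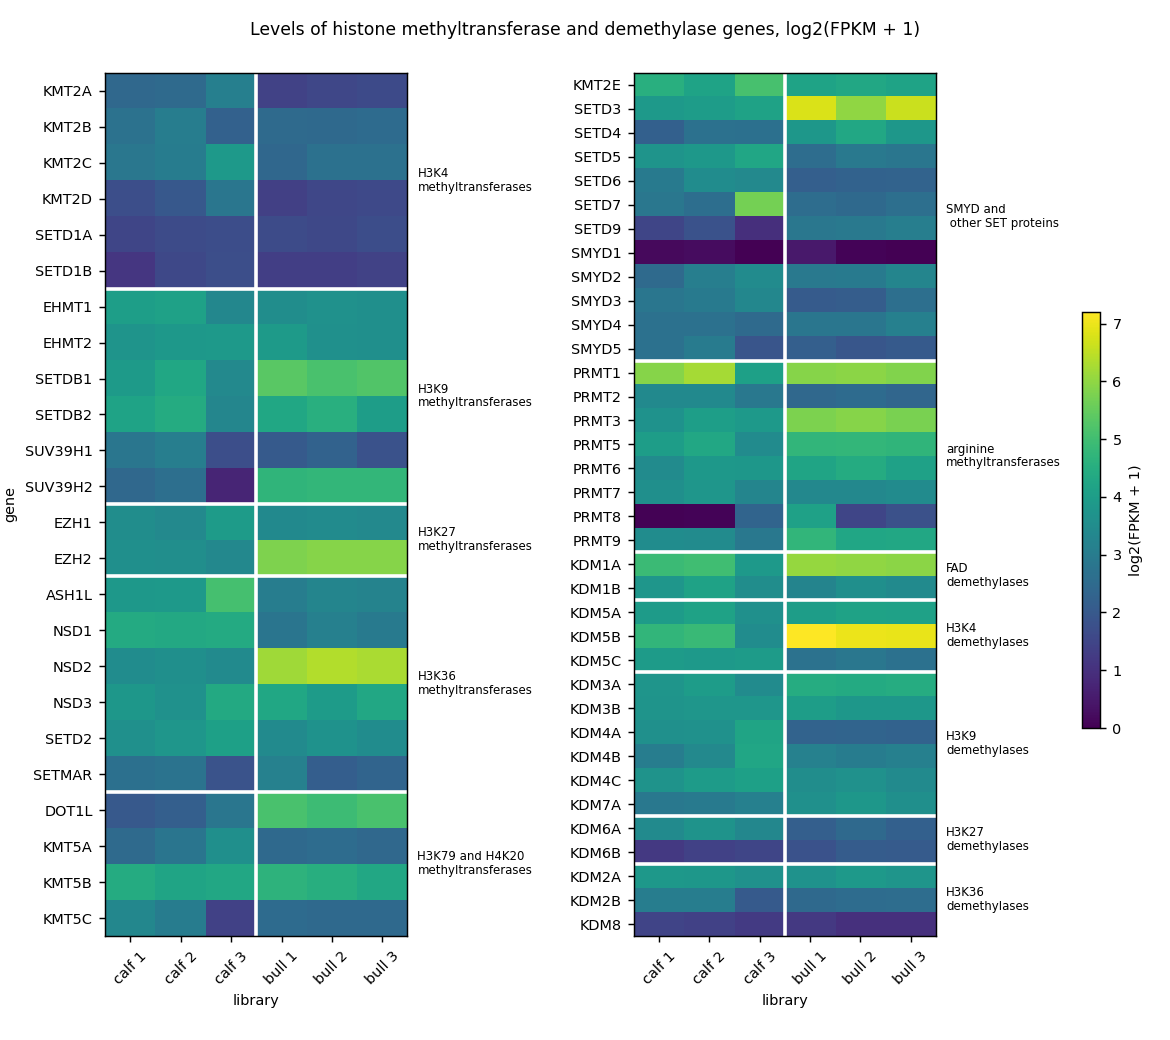
Level of each of the 60 genes in each library as log2(FPKM + 1), in colour from 0 to 7.2, with the genes grouped by the residue they act on. KDM5B, SETD3 and NSD2 are the brightest rows in the bulls, and the column of calf 3 departs from the other calves for SETD7, PRMT1, SUV39H2 and KMT5C.

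The comparison asked which of these enzymes differ between the immature and the mature testis. Values were taken as log2(FPKM + 1), genes that reached 1 FPKM in 3 or more of the 6 libraries were tested (18115 genes, 59 of them members), and bulls were compared with calves by limma over all of them, two-sided, with p-values adjusted by Benjamini-Hochberg. A gene is called here at an adjusted p below 0.05 with a log2 fold change (bulls minus calves) of at least 1 in size. With all libraries, 12 of the 59 members were called higher in the bulls (20.3%) against 35.7% of all genes tested, and 8 were called lower (13.6%) against 9.61%. Without calf 3, 12 members were called higher and 5 lower, against 37.9% and 13.6% of all genes. The median log2 fold change of the members was −0.11 beside 0.43 for all genes tested, and 19 of the 59 members lay above that median. The split depended on scaling. After quantile normalization the median of all genes moved to −0.26 and that of the members to −0.69, and 7 members were called higher and 18 lower, against 21.1% and 25.1% of all genes. Without calf 3, the same normalization gave 8 and 18 members, against 22.4% and 29.1%. Median-of-ratios scaling gave 11 and 10 members, against 32% and 13.6%, and 10 and 10 without calf 3, against 33.2% and 19.6%. Genes said below to be not called are judged without rescaling, and some gained a lower call after it. Quantile normalization added KDM8, KMT2C, KMT2D, SETD1B, KMT5A, SUV39H1, KMT2E, SMYD3, SMYD5 and PRMT2. Without calf 3 it added KDM1B, KDM2B, KDM8, KMT2D, KMT5C, EHMT1, SUV39H1, SMYD3, SMYD5 and PRMT2. Median-of-ratios scaling added SMYD3 and PRMT2, and without calf 3 SUV39H1, SMYD5 and PRMT2. No member was called in opposite directions under any of the 16 settings, and 12 members were called under every one: EZH2, NSD2, KDM5B, DOT1L, SUV39H2, SETD3 and PRMT3 higher, and KDM6A, NSD1, KDM5C, KDM4A and SETD5 lower. The 3 bulls lay above all calves for 19 of the 59 members (46.1% of all genes did) and below all calves for 14 (21.3% of all genes). Without calf 3 they lay above calf 1 and calf 2 for 21 members and below both for 22. Groups separate more easily with fewer calves, and the shares over all genes were not computed for that setting. These counts therefore say nothing particular about the members.

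**Figure D2:**
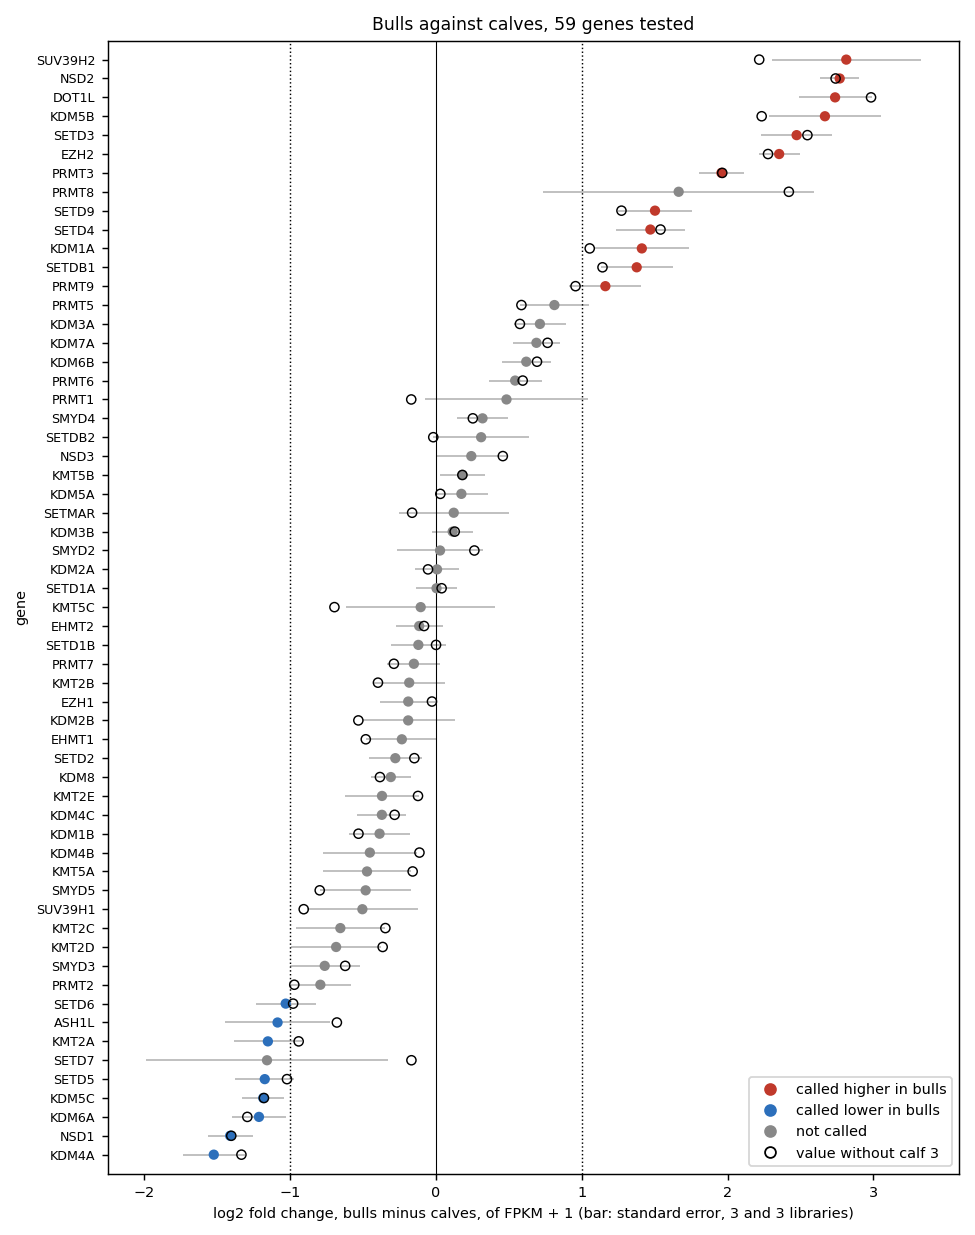
Log2 fold change (bulls minus calves, FPKM + 1) of the 59 genes tested, as filled points with standard errors for all 6 libraries and as open circles without calf 3, with dotted lines at −1 and 1. SUV39H2, NSD2, DOT1L and KDM5B lie furthest to the right and KDM4A and NSD1 furthest to the left, and SETD7 and PRMT8 have the widest errors.

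The enzymes that write H3K4 methylation were weakly expressed, with a lower sum in the bulls, while 2 erasers of the mark, KDM5B and KDM1A, were strongly expressed there. The summed FPKM of KMT2A, KMT2B, KMT2C, KMT2D, SETD1A and SETD1B was 21.7, 26.1 and 35.5 in the calves and 15.8, 17.1 and 18.2 in the bulls, where values are listed here and below by replicate number, calf 3 and bull 3 last. KMT2A, the catalytic subunit of a COMPASS-like complex that is rearranged in leukaemia, had 4.43, 4.62 and 7.57 FPKM in the calves and 1.70, 1.89 and 2.05 FPKM in the bulls. The groups did not overlap, and KMT2A was called lower (log2 fold change −1.15 ± 0.23 SE, adjusted p = 0.00656), but without calf 3 the change was −0.94 (adjusted p = 0.00111), short of the fold required. Its call was also lost with array weights. The enhancer enzymes KMT2C and KMT2D also had every bull below every calf, at log2 fold changes of −0.66 (adjusted p = 0.115) and −0.69 (adjusted p = 0.106), and neither was called. For both, the gap rested partly on calf 3, and it shrank to −0.35 and −0.37 without that library. After quantile normalization both were called lower (−1.19, adjusted p = 0.0159, and −1.52, adjusted p = 0.00525). Without calf 3, that normalization still called KMT2D lower (−1.13, adjusted p = 6.12e-04) but not KMT2C. The remaining 3, KMT2B, SETD1A and SETD1B, had log2 fold changes of −0.18, 0.0033 and −0.12 with all libraries, and their groups overlapped.

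KDM5B (chr16:79949862-80022792), a JmjC eraser of H3K4 trimethylation known from breast cancer and adult testis, had 25.9, 28.2 and 10.4 FPKM in the calves and 143, 127 and 123 FPKM in the bulls. Every bull was above every calf, and calf 3 was the lowest. The log2 fold change was 2.67 ± 0.38 (SE, adjusted p = 0.00160), and 2.23 ± 0.11 without calf 3 (adjusted p = 1.14e-05). Its relatives were not called higher. KDM5C (chrX:90644022-90675643) had 14.4, 14.0 and 14.4 FPKM in the calves and 5.56, 6.22 and 5.39 FPKM in the bulls. The 3 calves were nearly level, the bulls lay well below, and KDM5C fell by 1.19 on the log2 scale (SE 0.14, adjusted p = 7.73e-04) and by 1.18 without calf 3. For KDM5A, the values overlapped (11.3 to 16.8 FPKM in the calves and 15 to 16.7 FPKM in the bulls), with a log2 fold change of 0.17 (adjusted p = 0.455). The bulls' mean was thus 4.85-fold that of calf 1 and calf 2 for KDM5B and 0.402 of it for KDM5C.

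Of the 6 H3K9 methyltransferases, 2 were called higher, with and without calf 3, against 35.7% and 37.9% of all genes tested. SUV39H2 (chr13:29527156-29549270), the testis form of the enzyme of pericentric heterochromatin, had 4.40, 5.21 and 0.673 FPKM in the calves and 25.1, 26.3 and 26.3 FPKM in the bulls. Its calf values were far below those of all bulls, whose SD was 0.712 FPKM. The log2 fold change was 2.81 ± 0.51 (SE, adjusted p = 0.00435), and 2.22 ± 0.12 without calf 3 (adjusted p = 1.46e-05). The X-linked SUV39H1 (chrX:86777328-86790232), which has the same activity and is widely expressed, had 6.10, 7.40 and 2.34 FPKM in the calves and 3.09, 3.83 and 2.52 FPKM in the bulls. The bulls lay below calf 1 and calf 2 but not below calf 3, and the change of −0.51 was not called (adjusted p = 0.302). Without calf 3 it was −0.91 (adjusted p = 0.00478), short of the fold required. SUV39H1 was called lower after quantile normalization, with and without calf 3 (−1.18 and −1.50). Median-of-ratios scaling without calf 3 also called it lower (−1.19). SETDB1, which silences retroelements together with TRIM28, had 14.2, 18.4 and 9.56 FPKM in the calves and 39.7, 34.4 and 36.9 FPKM in the bulls. No calf reached a bull, and SETDB1 was called higher (1.38 ± 0.25 SE, adjusted p = 0.00419), although not after quantile normalization nor, without calf 3, after median-of-ratios scaling. SETDB2 overlapped between the groups and its sign depended on calf 3 (0.31 with it and −0.02 without it). EHMT1 and EHMT2, partners in H3K9 dimethylation, were not called (−0.23 and −0.12), and EHMT1 lay below calf 1 and calf 2 in every bull (−0.48 without calf 3, adjusted p = 0.00721). Quantile normalization without calf 3 called EHMT1 lower (−1.11, adjusted p = 1.53e-04).

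Among the 6 erasers of H3K9 methylation, KDM4A alone was called, as lower, against 9.61% of all genes tested. KDM4A (chr3:102343085-102382969), which also acts on H3K36, had 11.2, 11.5 and 17.3 FPKM in the calves and 3.89, 4.01 and 3.80 FPKM in the bulls. The bulls were nearly identical and lay below all calves, and KDM4A fell by 1.52 on the log2 scale (SE 0.21, adjusted p = 0.00136) and by 1.34 without calf 3 (adjusted p = 1.43e-04). KDM3A, the H3K9 demethylase that spermatids need to express protamine genes, had 12.6, 14.9 and 10.0 FPKM in the calves and 21.1, 20.3 and 21.2 FPKM in the bulls. The groups did not overlap, but the change of 0.71 stayed under the fold required (adjusted p = 0.0158), as did the 0.58 without calf 3. KDM7A behaved alike, at 6.33, 6.71 and 7.81 FPKM against 11.4, 12.9 and 11.1 FPKM (0.69, adjusted p = 0.0118, and 0.76 without calf 3). KDM4B and KDM4C were not called, and KDM4B was highest in calf 3 (18.0 FPKM against 7.14 to 9.56 FPKM in the other libraries).

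Of the H3K27 enzymes, the writer EZH2 rose and the eraser KDM6A fell. EZH2 (chr4:112022548-112069782), the catalytic subunit of Polycomb repressive complex 2 in dividing cells, had 11.1, 10.9 and 9.21 FPKM in the calves and 54.9, 57.9 and 58.2 FPKM in the bulls. Both groups were tight and far apart, with a log2 fold change of 2.35 ± 0.14 (SE, adjusted p = 4.83e-05) and 2.28 ± 0.09 without calf 3 (adjusted p = 5.69e-06). EZH1, its counterpart in resting cells, stayed at 9.51 to 14.4 FPKM in the calves and 9.54 to 10.1 FPKM in the bulls (−0.19, adjusted p = 0.432). KDM6A (chrX:98634552-98814092), the X-linked H3K27 demethylase, had 9.90, 11.9 and 9.06 FPKM in the calves and 3.49, 4.52 and 3.58 FPKM in the bulls. Every bull lay below every calf, and KDM6A fell by 1.21 on the log2 scale (SE 0.19, adjusted p = 0.00211) and by 1.29 without calf 3. Its autosomal relative KDM6B was low at both ages, with 1.29, 1.63 and 1.86 FPKM in the calves and 2.52, 3.24 and 3.19 FPKM in the bulls. The bulls were above all calves, at a log2 fold change of 0.62 (adjusted p = 0.0221), and of 0.69 without calf 3, both under the fold required.

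All 3 members on chromosome X (KDM5C, KDM6A and SUV39H1) had lower mean levels in the bulls, and 2 of the 3 were called. Of the 664 genes tested on this chromosome, 30.3% were called lower and 22.7% higher, with a median log2 fold change of −0.38, against 8.92% lower and 36% higher and a median of 0.44 on the autosomes. The 3 members thus shared the direction of the median gene of their chromosome.

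Among the H3K36 enzymes, NSD2 rose and NSD1 fell, and NSD3 was not called. NSD2 (chr6:116642228-116685495), which dimethylates H3K36, had 10.3, 11.0 and 9.96 FPKM in the calves and 71.7, 82.1 and 76.6 FPKM in the bulls. The 3 calves, calf 3 included, were close to each other and far below the bulls, and the log2 fold change of 2.77 ± 0.14 (SE, adjusted p = 2.34e-05) hardly moved without calf 3 (2.74). NSD1 (chr7:38621346-38767518), an enzyme of the same activity, had 20.2, 19.1 and 20 FPKM in the calves and 5.97, 7.83 and 6.73 FPKM in the bulls. It fell by 1.41 on the log2 scale (SE 0.16, adjusted p = 5.18e-04) and by 1.40 without calf 3. The calf values of NSD1 were thus above those of NSD2 and its bull values far below. ASH1L, which also acts on H3K36, had 13.3, 13.8 and 33.0 FPKM in the calves and 7.31, 8.71 and 8.32 FPKM in the bulls. It was called lower with calf 3 (−1.09 ± 0.36 SE, adjusted p = 0.0441), the calf with by far the highest level, and not without it (−0.68, adjusted p = 0.00292). The call was also lost on leaving out any bull, without the filter on low values, with array weights and with the replicate number as a block. SETD2, which alone trimethylates H3K36 in most cells, differed little (9.90 to 11.7 FPKM in the bulls and 11.3 to 16.0 FPKM in the calves, −0.28, adjusted p = 0.236). Of the erasers, KDM2A was level (11.5 to 13.4 FPKM against 11.8 to 13.8 FPKM), KDM2B was lowest in calf 3 (3.11 FPKM), and KDM8 stayed between 0.983 and 1.79 FPKM, and none of the 3 was called.

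DOT1L (chr7:21334365-21386441), the enzyme of H3K79 methylation, had 3.00, 3.55 and 6.12 FPKM in the calves and 34.4, 29.8 and 34.3 FPKM in the bulls. No calf came near the bulls, whose mean was 10.0-fold that of calf 1 and calf 2, the largest such fold among the genes called with all libraries. The log2 fold change was 2.74 ± 0.25 (SE, adjusted p = 2.43e-04) and 2.98 ± 0.13 without calf 3 (adjusted p = 6.71e-06). The H4K20 enzymes were not called. KMT5B was level at 17.6 to 20.3 FPKM in the calves and 19.0 to 24.3 FPKM in the bulls. KMT5C had 9.03, 7.15 and 1.64 FPKM in the calves and 4.69, 4.49 and 4.55 FPKM in the bulls, so that the bulls lay between calf 3 and the other calves (−0.11 with all libraries, and −0.70 without calf 3, adjusted p = 0.00513). Its Ensembl transcripts held 25% to 47.2% of the gene's FPKM. Summed alone, they changed by −0.36 without calf 3 (limma, adjusted p = 0.147). KMT5A, which places the monomethyl mark, reached 11.0 FPKM in calf 3 and 4.43 to 5.90 FPKM elsewhere.

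**Figure D3:**
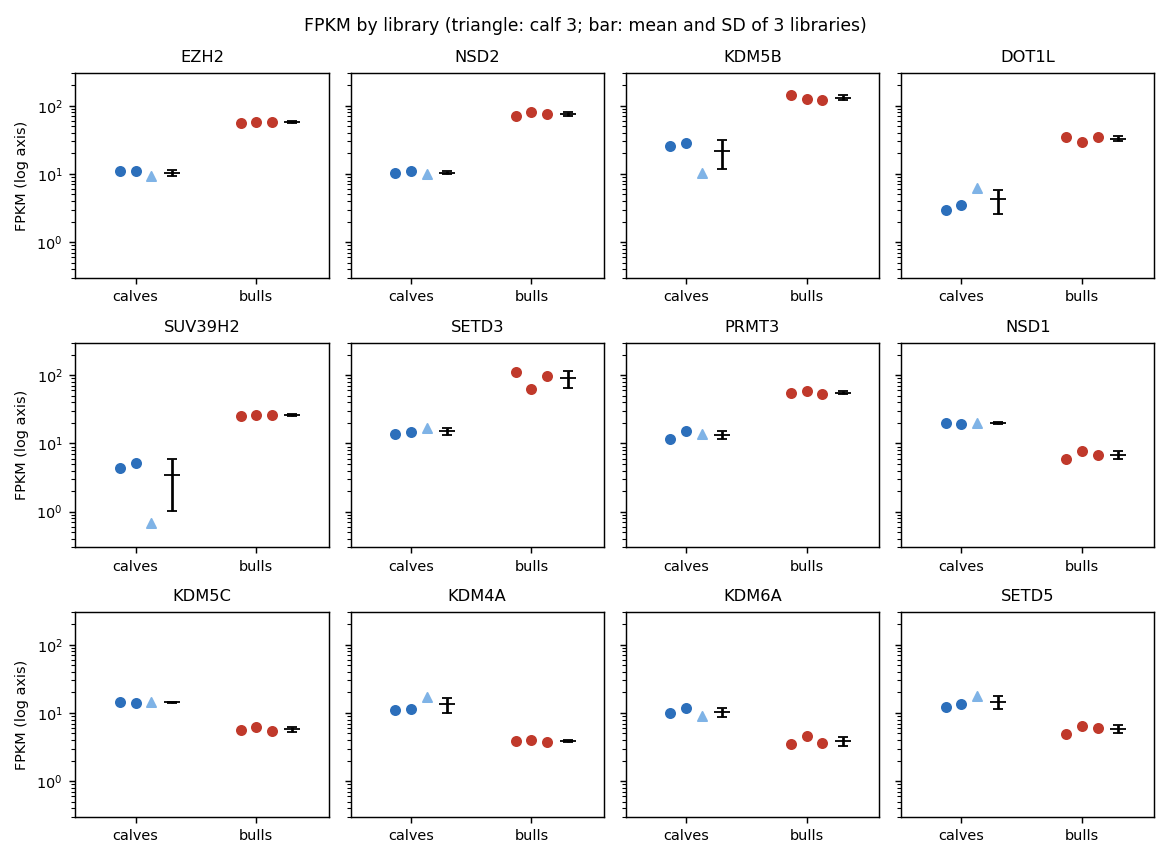
FPKM (log axis) of the 12 genes called in all 16 settings, 7 higher and 5 lower in the bulls, with 1 point per library, triangles for calf 3 and black bars for the mean and SD of 3 libraries. In each panel the bulls and the calves do not overlap. Calf 3 is the lowest calf for EZH2, NSD2, KDM5B, SUV39H2 and KDM6A and the highest for DOT1L, SETD3, KDM4A and SETD5.

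Of the 12 SMYD and other SET domain proteins, several act on proteins other than histones, and 11 were tested. With all libraries, 3 were called higher and 2 lower, against 35.7% and 9.61% of all genes tested. SETD3 (chr21:64414349-64492753), which methylates a histidine of actin, had 13.6, 14.7 and 16.7 FPKM in the calves and 110, 62.9 and 97.4 FPKM in the bulls. Bull 2 was lowest among the bulls and still far above every calf (2.47 ± 0.24 SE, adjusted p = 3.23e-04, and 2.55 without calf 3). SETD4 had 3.59, 5.48 and 5.30 FPKM in the calves and 13.1, 19.0 and 13.1 FPKM in the bulls (1.47 ± 0.23 SE, adjusted p = 0.00251). SETD9 was low, with 1.86, 2.54 and 0.972 FPKM in the calves and 6.18, 6.51 and 7.42 FPKM in the bulls (1.5 ± 0.26 SE, adjusted p = 0.00334). SETD4 and SETD9 were called with and without calf 3 and lost their calls after quantile normalization of all libraries, and SETD9 also after quantile normalization without calf 3. SETD5 (chr22:17130385-17176329) had 12.3, 13.4 and 18.0 FPKM in the calves and 4.97, 6.47 and 6.10 FPKM in the bulls (−1.17 ± 0.20 SE, adjusted p = 0.00355), and −1.02 without calf 3. SETD6, known for methylating the NF-kappa-B subunit RELA, was close to the threshold, at −1.03 (adjusted p = 0.00660), and its call was lost without calf 3 (−0.98), calf 2 or bull 1, and with array weights. Every bull lay below every calf for both genes.

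SETD7, a lysine monomethyltransferase, showed how much calf 3 could weigh. It had 6.21, 5.03 and 50.7 FPKM in the calves and 4.94, 4.54 and 5.13 FPKM in the bulls, so that calf 3 alone was high. The log2 fold change was −1.16 ± 0.83 (SE, adjusted p = 0.276), and −0.17 without calf 3 (adjusted p = 0.330). In all, 4 members were at least 2-fold higher in calf 3 than in both other calves (ASH1L, KMT2D, SETD7 and PRMT8, where 20.7% of all genes tested were), and 8 were at most at 0.5 of both (KDM1A, KDM2B, SETMAR, KDM5B, KMT5C, SUV39H1, SUV39H2 and PRMT1, where 30% were). KMT2E, a SET protein without known histone activity, was the member with the next highest level in calf 3 (33.2 FPKM, against 22.1 and 17.1 FPKM in the other calves and 17.2, 19.0 and 17.2 FPKM in the bulls) and was not called (−0.37, adjusted p = 0.259). KMT2E was called lower after quantile normalization of all libraries (−1.04, adjusted p = 0.0142), and not when calf 3 was left out as well (−0.83). SMYD3 and SMYD5 had means below those of calf 1 and calf 2 in the bulls, at log2 fold changes of −0.62 (adjusted p = 0.0338) and −0.80 (adjusted p = 0.00528) without calf 3, and neither was called.

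Of the 8 arginine methyltransferases, 2 were called higher and none lower with all libraries, against 35.7% and 9.61% of all genes tested. PRMT3 (chr29:24440296-24562058), a cytoplasmic enzyme whose best known substrate is a ribosomal protein, had 11.6, 15.4 and 13.5 FPKM in the calves and 54.2, 58.2 and 52.9 FPKM in the bulls. The groups were far apart and calf 3 lay between the other calves, with a log2 fold change of 1.96 ± 0.16 (SE, adjusted p = 1.38e-04) and the same value without calf 3. PRMT9, which methylates a splicing factor, had 10.4, 10.0 and 6.33 FPKM in the calves and 25.9, 18.1 and 19.1 FPKM in the bulls. It was called with calf 3 (1.16, adjusted p = 0.00825) and not without it (0.96, adjusted p = 0.00265). With calf 3 kept, the call was also lost after quantile normalization, median-of-ratios scaling or array weights. PRMT5, the main enzyme of symmetric arginine dimethylation, had 15.1, 18.8 and 10.1 FPKM in the calves and 26, 26.2 and 25.2 FPKM in the bulls, every bull above every calf (0.81, adjusted p = 0.0273, and 0.59 without calf 3). PRMT6 also had all bulls on top (0.54, adjusted p = 0.0444, and 0.59 without calf 3), and PRMT2 had all bulls at the bottom (−0.79, adjusted p = 0.0195, and −0.97 without calf 3). These 3 stayed under the fold required in these fits. PRMT1 had 58.4, 74.3 and 16.2 FPKM in the calves and 58.5, 60.9 and 56.0 FPKM in the bulls. The bulls lay within the range of the calves, and the sign of its difference turned with calf 3 (0.48 with it and −0.17 without it). PRMT7 overlapped between the groups (−0.15, adjusted p = 0.510).

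PRMT8, a membrane-bound relative of PRMT1 known from neurons, was the member with the most uneven values. It had 0.0268, 0.0415 and 3.98 FPKM in the calves and 16.4, 1.83 and 2.43 FPKM in the bulls, so that calf 3 overlapped the bulls and bull 1 stood far above them. It was not called with all libraries (1.66 ± 0.93 SE, adjusted p = 0.177) and was called without calf 3 (2.42, adjusted p = 0.0275). The entries behind these values differed between libraries. In bull 1, 91.0% of the gene's FPKM came from PRMT8-OT1, an assembled entry listed at 0 in bull 2 and all calves, and the Ensembl transcript PRMT8-201 held 0.483% to 5.07% of the gene's FPKM in the bulls. PRMT8-202, the other Ensembl transcript, was listed at 0 in all libraries. PRMT8-201 was highest in calf 3 (2.31 FPKM against 0 and 0.0211 FPKM in the other calves and 0.0680 to 0.123 FPKM in the bulls). The higher gene value in the bulls was thus not that of the Ensembl transcripts of PRMT8.

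Of the flavin-dependent demethylases, KDM1A (LSD1, chr2:129770258-129838623), which acts on H3K4 and in some complexes on H3K9, had 29.3, 30.6 and 13.7 FPKM in the calves and 66.2, 63.0 and 60.5 FPKM in the bulls. The bulls' mean was 2.11-fold that of calf 1 and calf 2, calf 3 was the lowest library, and KDM1A was called higher with and without calf 3 (1.41 ± 0.32 SE, adjusted p = 0.0108, and 1.05 ± 0.09, adjusted p = 1.30e-04). The call was lost after quantile normalization, and without calf 3 also after median-of-ratios scaling. KDM1B, which acts in oocytes on imprinted loci, had 12.8, 16.6 and 10.5 FPKM in the calves and 8.55, 10.9 and 9.94 FPKM in the bulls (−0.39, adjusted p = 0.166, and −0.53, adjusted p = 0.0243, without calf 3).

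Ratios of related genes within a library do not depend on how libraries are scaled against each other, apart from the 1 FPKM added. The log2 ratio was taken for 20 pairs fixed by homology and compared over the libraries by an exact permutation test, two-sided, which with 3 against 3 animals cannot go below p = 0.1. The largest difference was that of NSD2 over NSD1, with log2 ratios of −0.91, −0.75 and −0.94 in the calves and 3.38, 3.23 and 3.33 in the bulls (difference 4.18, exact p = 0.1, adjusted p = 0.143). NSD2 was thus below NSD1 in each calf and above it in each bull. The ratio of KDM5C to KDM5B was −0.80, −0.96 and 0.44 in the calves and −4.46, −4.14 and −4.28 in the bulls (difference −3.85, exact p = 0.1, adjusted p = 0.143). For SUV39H2 over SUV39H1 the ratio was −0.39, −0.44 and −1.0 in the calves and 2.67, 2.5 and 2.96 in the bulls (difference 3.32, exact p = 0.1), which again places the X-linked gene first in the calves and the autosomal gene first in the bulls. EZH1 and EZH2 were near equal in the calves (−0.07, −0.17 and 0.59) and far apart in the bulls (−2.38, −2.41 and −2.49). KDM6A exceeded KDM6B by log2 ratios of 2.25, 2.30 and 1.81 in the calves and of 0.35, 0.38 and 0.13 in the bulls. KDM1A over KDM1B differed by 1.80 and NSD3 over NSD1 by 1.65. In 14 of the 20 pairs the groups did not overlap, and in 18 of 20 without calf 3, where the smallest p is 0.2. These shares were near those over all pairs of genes tested, of which 66.8% did not overlap with all libraries and 83.8% without calf 3. KMT2C over KMT2D overlapped fully (1.03 to 1.12 in the calves and 1.03 to 1.14 in the bulls, difference 0.03, exact p = 0.6). For EHMT1 over EHMT2, SETD1A over SETD1B, KMT5B over KMT5C, KDM2A over KDM2B and PRMT1 over PRMT8 the groups overlapped when calf 3 was kept.

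**Figure D4:**
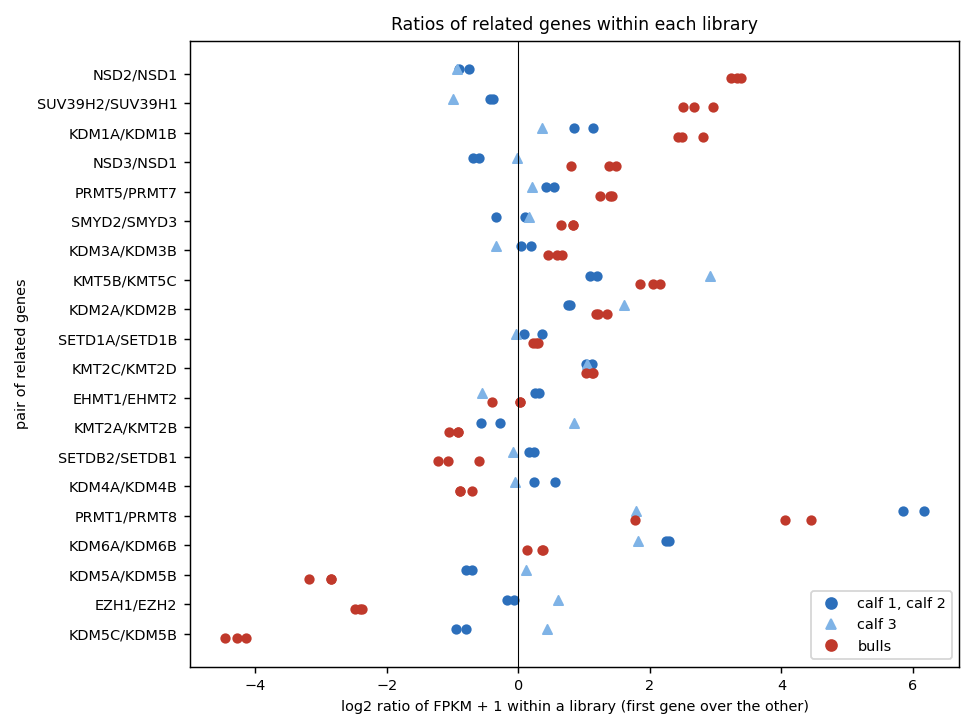
Log2 ratio of FPKM + 1 between the genes of 20 pairs, with 1 point per library, calf 1 and calf 2 as dark circles, calf 3 as triangles and the bulls as red circles. Bulls and calves do not overlap in 14 pairs, with NSD2/NSD1 and SUV39H2/SUV39H1 moving to the right and KDM5C/KDM5B, EZH1/EZH2 and KDM5A/KDM5B to the left.

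At the level of transcripts, the 60 genes had 222 entries, of which 98 in 58 genes passed the filter. In the same kind of fit over 23212 transcripts, 22 were called higher in the bulls (22.4%) against 34.8% of all transcripts tested, and 11 were called lower (11.2%) against 9.37%, and without calf 3 the counts were 22 and 10, against 36.1% and 13.1%. Quantile normalization gave 12 and 31 (against 21.6% and 25.3%) and, without calf 3, 12 and 32 (against 22.4% and 28.7%). Median-of-ratios scaling gave 20 and 16 (against 32.4% and 12%), and 19 and 19 without calf 3 (against 33.2% and 16.9%). In EHMT2 and NSD3, transcripts were called in both directions while the gene was not called. EHMT2-201 had 8.27, 9.68 and 6.51 FPKM in the calves and 1.27, 1.39 and 0.512 FPKM in the bulls, and it fell by 2.17 on the log2 scale (adjusted p = 9.08e-04). EHMT2-204 had 1.18, 1.57 and 2.0 FPKM in the calves and 6.78, 5.25 and 5.61 FPKM in the bulls, and it rose by 1.42 (adjusted p = 0.00207). The groups did not overlap for either transcript, and both calls held without calf 3. EHMT2-201 was therefore the leading transcript in every calf and the least of the 3 tested in every bull. In KDM2A, the minor transcript KDM2A-202 had 3.62, 3.43 and 2.93 FPKM in the calves and 1.09, 0.753 and 0.582 FPKM in the bulls (−1.26, adjusted p = 0.00184), while KDM2A-201, which makes up most of the gene, was not called (0.32, adjusted p = 0.140).

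NSD3, the third enzyme of its family, looked level as a gene, with 13, 11.5 and 19.8 FPKM in the calves and 18.5, 14.4 and 19.0 FPKM in the bulls (0.24, adjusted p = 0.430, and 0.46, adjusted p = 0.0330, without calf 3). Its entries did not. NSD3-201 had 4.67, 4.34 and 9.67 FPKM in the calves and 2.11, 1.46 and 2.20 FPKM in the bulls (−1.24, adjusted p = 0.0199, and −0.92 without calf 3, short of the fold required). NSD3-203 had 5.09, 4.31 and 4.64 FPKM in the calves and 1.47, 1.93 and 1.21 FPKM in the bulls (−1.17, adjusted p = 0.00329, and −1.18 without calf 3). Both were lower in every bull than in any calf. NSD3-AS1, an assembled entry inside the gene (chr27:33457666-33459006), was listed at 0 in all calves and had 10.0, 5.39 and 10.4 FPKM in the bulls, 54.1%, 37.3% and 54.5% of the gene's FPKM. It was called higher (adjusted p = 1.88e-04), and no fold is given against a group at 0. Over the Ensembl transcripts alone, NSD3 summed to 12.7, 11.1 and 18.7 FPKM in the calves and 7.78, 7.77 and 8.02 FPKM in the bulls. All bulls then lay below all calves, at a log2 fold change of −0.74 (adjusted p = 0.0340) in place of 0.24, and of −0.54 without calf 3 (adjusted p = 0.00680).

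**Figure D5:**
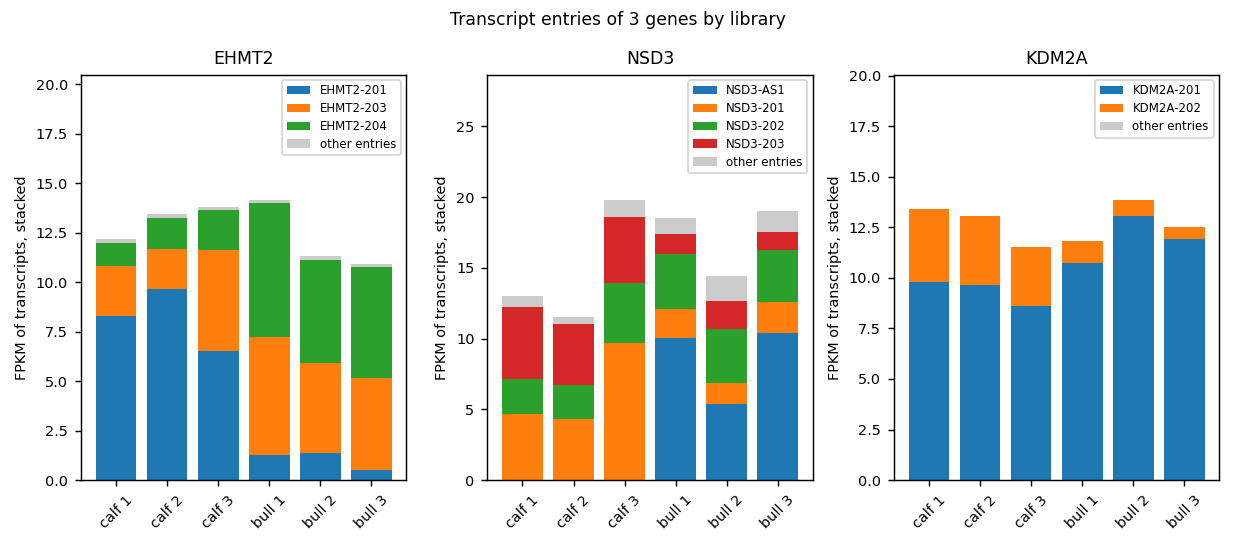
FPKM of the transcript entries of EHMT2, NSD3 and KDM2A, stacked, in each library, with entries that missed the filter in grey. The block of EHMT2-201 shrinks and that of EHMT2-204 grows from calves to bulls, and NSD3-AS1 is present in the bulls only.

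The same check was made for all members, since a gene value in the table adds assembled entries, some named as antisense, to the Ensembl transcripts. With each gene taken as the sum of its Ensembl transcripts (13737 genes tested, 58 of them members), 11 members were called higher against 25.6% of all genes, and 7 lower against 11.7%. These were 11 of the 12 and 7 of the 8 called from the gene table. Without calf 3, 11 were called higher (against 27.8% of all genes) and 7 lower (against 17.4%). The 7 were the 5 called lower from the gene table without calf 3, together with SETMAR and PRMT2 (−1.06, adjusted p = 5.64e-04). SETD4 dropped out (0.76, adjusted p = 0.0847, and 1.0 with a call without calf 3), and 23.4% to 33.3% of its FPKM in the bulls came from Ensembl transcripts, and ASH1L missed narrowly (−1.02, adjusted p = 0.0519). SETMAR, a SET domain fused to a transposase, turned from 0.12 to −0.88 (adjusted p = 0.0722), and without calf 3 it was called lower (−1.20, adjusted p = 0.00177). Its Ensembl transcript, with 5.06, 5.32 and 2.15 FPKM in the calves and 2.14, 1.18 and 1.83 FPKM in the bulls, was lower in every bull than in any calf. DOT1L was called in both of its Ensembl transcripts, but their balance differed between bulls: DOT1L-202 led in bull 1 and bull 3 (26.5 and 24.8 FPKM against 7.39 and 9.25 FPKM for DOT1L-201) and DOT1L-201 led in bull 2 (19.1 against 10.2 FPKM). The loci of 33 of the 60 members, 13 of the 20 called ones among them, overlap another entry of the table. The kit marks strand, but the strand setting of the quantification is not given in the sources used here, so reads of overlapping genes may be shared.

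The proteins that these enzymes work with were described from lists of complex subunits, readers, related enzymes and methyl donor genes, 61 entries in all, of which 57 were tested. With all libraries, 20 were called higher (35.1%, beside 35.7% of all genes) and 3 lower (5.26%, beside 9.61%). Without calf 3 the counts were 15 (26.3%, beside 37.9% of all genes) and 6 (10.5%, beside 13.6%). With all libraries, quantile normalization left 5 called higher and 11 lower, beside 21.1% and 25.1% of all genes. Median-of-ratios scaling gave 13 and 4 partners, beside 32% and 13.6%. The subunits of the COMPASS complexes, which hold the H3K4 writers, had 5 of 13 called higher, against 35.7% of all genes, and none lower. Without calf 3, 4 of 13 were called higher, against 37.9% of all genes. WDR5, a core subunit of these complexes, had 8.71, 8.80 and 5.07 FPKM in the calves and 35.5, 36.9 and 39.8 FPKM in the bulls (2.20 ± 0.23 SE, adjusted p = 4.07e-04, and 1.98 without calf 3). The catalytic KMT2 and SETD1 genes were not called higher. Of the 9 tested genes of Polycomb repressive complex 2, 3 were called higher, against 35.7% of all genes: EED, which EZH2 needs for activity (1.06), RBBP4 (1.58) and PHF1 (1.3). None of these 3 kept its call after quantile normalization, and EED also lost it after median-of-ratios scaling. SUZ12, the other core subunit, was at 0.64 (adjusted p = 0.0349), under the fold required, and the X-linked RBBP7 was lower in the bulls than in calf 1 and calf 2 (−1.01 without calf 3, adjusted p = 5.63e-04, and −0.42 with it).

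Among H3K9 and heterochromatin partners, 3 of 8 were called higher, against 35.7% of all genes. TRIM28, the co-repressor that recruits SETDB1, had 63.0, 56.9 and 25.5 FPKM in the calves and 217, 216 and 217 FPKM in the bulls (2.24 ± 0.36 SE, adjusted p = 0.00257, and 1.84 without calf 3). ATF7IP2, a relative of the SETDB1 cofactor ATF7IP, was called higher as well (3.02, adjusted p = 0.0237, and 2.02 without calf 3), and ATF7IP was not (−0.24, adjusted p = 0.194). Every bull lay above every calf for TRIM28 and ATF7IP2. Of 9 enzymes outside the symbol rule, CARM1, the arginine methyltransferase also known as PRMT4, had 10.4, 12.1 and 6.6 FPKM in the calves and 69.7, 58.9 and 70.8 FPKM in the bulls (2.69 ± 0.24 SE, adjusted p = 2.19e-04, and 2.46 without calf 3). RIOX2, a JmjC hydroxylase, rose by 2.59 (adjusted p = 7.03e-04) and MECOM by 1.29 (adjusted p = 0.00257), and both were called without calf 3 (2.26 and 1.18). With all libraries, these 3 of the 9 were called higher, against 35.7% of all genes, and none lower. Without calf 3, the X-linked PHF8 was called lower (−1.05, adjusted p = 8.31e-04, and −0.68, adjusted p = 0.139, with it). PRDM9, the meiotic H3K4 methyltransferase that places recombination sites, missed the filter, with 0.433, 0.112 and 0.0661 FPKM in the calves and 1.09, 1.36 and 0.933 FPKM in the bulls.

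The LSD1 complex had 2 of 6 genes called higher and 2 lower, against 35.7% and 9.61% of all genes. RCOR1 (1.08) and HDAC1 (1.20) were called higher with calf 3 only, and PHF21A (−1.21) and RCOR2 (−1.13) were called lower with and without it. Among 6 genes of the methyl donor cycle, MAT1A was called higher (1.31, adjusted p = 3.63e-04) and AHCYL1 lower (−1.82, adjusted p = 2.00e-04), and AHCY, the hydrolase that clears S-adenosylhomocysteine, was called lower without calf 3 only (−1.40, adjusted p = 0.00198). For arginine methylation, COPRS (1.43) and RIOK1 (1.13), both PRMT5 adaptors, were called higher, and RIOK1 was not called without calf 3 (0.83). Of the 2 meiotic readers, ZCWPW1, a reader of PRDM9 marks, was called higher with calf 3 (1.14) and not without it (0.79).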

How the data were processed

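FPKM values of genes and transcripts, 1 column per library, were used as the authors deposited them. According to the Methods, reads of low quality or matching ribosomal RNA (Bowtie2) were removed, the rest was mapped with TopHat2 to a cattle assembly, and transcripts were assembled with StringTie. The tool behind the deposited FPKM values of genes is not given in the sources used here. UMD3.1.1 is named there, but the scaffold names in the tables are those of an ARS-UCD assembly, and positions are the tables' own.

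Counts could not be recovered: at most 2.91% of genes below 0.05 FPKM shared 1 ratio to calf 1. The depth behind a value is thus unknown, no counting interval was computed, and the spread between animals stands in for it. FPKM summed to 587066 to 1098715 per library. The filter, log2(FPKM + 1) and limma (3.58.1, trend, R 4.3.3) were applied as described above to 18115 genes and 23212 transcripts. The pseudocount draws fold changes of weak genes toward 0. On simulated data with 200 features changed by a log2 fold of 2, 177 genes were recovered with 4 false calls (16796 genes tested), and 156 transcripts with 9 false calls (20847 tested). The simulated spread was taken from calf 1, calf 2 and the bulls, and the changed features had a mean log2(FPKM + 1) above 1. These rates therefore do not describe a fit that includes calf 3, or weak features. Figures were drawn with matplotlib 3.10.9.

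Alternatives were a pseudocount of 0.1, no filter, a mean of at least 1 FPKM, quantile normalization, median-of-ratios scaling, array weights, a replicate block and each library left out. Quantile normalization and median-of-ratios scaling without calf 3, and sums of Ensembl transcripts, were added after seeing the data. Per class, the called genes with the largest change (up to 3) and the highest gene were to be named, with the study's host genes among them, chromosome X genes, pairs, genes whose call or sign changed without calf 3, genes at 0 in a group and genes with transcripts called both ways. Other genes named were chosen after their values were seen. The members and lists were chosen with earlier results of these data known. No member sequence was printed.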

Additional observations from a re-analysis of the deposited data

How the results depend on the processing

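The tables hold no counts, so depth sets no limit that could be computed, and with 3 animals a group the exact test of a ratio cannot pass 0.05. Calf 3, quantile normalization and median-of-ratios scaling moved most results; their causes were not tested. Members called higher and lower were 12 and 8, and 7 and 18 after quantile normalization, 8 and 18 after it without calf 3, 12 and 5 without calf 3, and 12 and 5 with array weights; leaving out 1 library gave 12 to 13 and 5 to 8. Member transcripts called higher and lower were 22 and 11, 12 and 31 after quantile normalization, 12 and 32 after it without calf 3, and 20 and 16 after median-of-ratios scaling; the lower count was 19 after the latter without calf 3, and leaving out 1 library gave 22 in each case and 9 to 12. Over all genes the counts were 6474 and 1741, 3827 and 4538 after quantile normalization, 4062 and 5275 after it without calf 3, and 3556 lower after median-of-ratios scaling without calf 3, with 6034 to 6859 and 1218 to 2466 on leaving out 1 library. Over all transcripts they were 8079 and 2176, 5018 and 5884, 5198 and 6655, and 3928 lower, in the same order, with 7504 to 8383 and 1492 to 3046. Partners numbered 20 and 3, 5 and 11 after quantile normalization, 7 and 14 after it without calf 3, 13 higher after median-of-ratios scaling, 10 and 8 after that without calf 3, 5 lower with array weights and 6 lower without calf 3, and 12 to 20 and 2 to 6 on leaving out 1 library, the lowest counts being 12 without bull 2 and 13 without bull 3.

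The signs of weak log2 fold changes turned. After quantile normalization they were SETDB2 −0.32, NSD3 −0.36, SETMAR −0.47, KMT5B −0.50, PRMT1 −0.26, PRMT6 −0.045, KDM2A −0.56, KDM5A −0.42, KDM6B −0.13, SETD1A −0.84, KDM3B −0.46, SMYD2 −0.47, SMYD4 −0.18, NSD3-202 −0.29 and KDM2A-201 −0.28. After median-of-ratios scaling they were NSD3 −0.029, SETMAR −0.11, KMT5B −0.093, KDM2A −0.26, KDM5A −0.095, SETD1A −0.19, KDM3B −0.15 and SMYD2 −0.23. With quantile normalization and no calf 3 they were SETDB2 −0.72, NSD3 −0.16, SETMAR −0.71, KMT5B −0.54, PRMT1 −0.96, PRMT5 −0.13, PRMT6 −0.0097, KDM2A −0.66, KDM3A −0.079, KDM5A −0.62, KDM6B −0.028, SETD1A −0.72, KDM3B −0.47, SMYD2 −0.24, SMYD4 −0.25, NSD3-202 −0.071 and KDM2A-201 −0.35. With median-of-ratios scaling and no calf 3 they were SETDB2 −0.35, SETMAR −0.46, KMT5B −0.15, PRMT1 −0.51, KDM2A −0.38, KDM5A −0.30, SETD1A −0.20, KDM3B −0.20, SMYD2 −0.038 and SMYD4 −0.047. Array weights gave SETMAR −0.19, PRMT1 −0.12 and KDM2A −0.040. On leaving out 1 library, log2 fold changes ranged from −0.019 to 0.54 for SETDB2, −0.19 to 0.32 for SETMAR, −0.17 to 0.90 for PRMT1, −0.055 to 0.053 for KDM2A, −0.70 to 0.27 for KMT5C, −0.40 to 0.0054 for KMT2B, −0.048 to 0.042 for SETD1A, −0.24 to 0.26 for SMYD2 and −0.29 to 8.84e-06 for SETD1B. Differences of log2 ratios ranged from −0.40 to 0.035 for EHMT1 over EHMT2 and −0.034 to 0.88 for KMT5B over KMT5C.

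Replicate numbers are shared by the groups, and the deviations of libraries with the same number from their group means correlated at 0.03, 0.02 and 0.03 only. Calf 3 weighs on the group mean of the calves and so on the deviations of all calves. Whether libraries of the same number share a batch therefore cannot be told from these values. With the number as a replicate block, 12 members were called higher and 7 lower, 22 and 9 of their transcripts, 6437 and 1691 of all genes, 7998 and 2089 of all transcripts, and 20 and 3 partners.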
